A study of Mus musculus with 4 samples.

Results

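The enzymes that make, reduce, hydroxylate or sulfate oxysterols, together with those that esterify cholesterol, were examined in the liver of mice fed 7-ketocholesterol (7KC), an oxidized form of cholesterol. The members were taken by gene symbol, with no threshold on a measured value: Hsd11b1, Cyp27a1, Ch25h, Cyp46a1, Cyp7b1, Cyp39a1, Sult2b1, Soat1, Soat2 and Lcat, which are 10 of the 24346 genes listed in each library. Liver RNA was sequenced from wild type male C57BL/6 mice kept for 3 weeks on a NASH diet, which is rich in fat, cholesterol and sucrose, contains bile salt and induces steatohepatitis. The control group received this diet alone (n = 2 libraries) and the 7KC group received it with 7KC added (n = 2 libraries). Both groups thus shared the NASH diet, no library came from a mouse on ordinary chow, and the livers were taken before any imiquimod was applied to the skin. The labels do not say whether the replicates are separate animals, so p-values measure only the spread between these libraries, which may be technical. The values are FPKM, fragment counts scaled by transcript length and by the mapped total.

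Oxysterols are formed when enzymes or free oxygen add an oxygen to cholesterol, and they are removed by hydroxylation towards bile acids, by sulfation or by esterification with a fatty acid. 7KC forms mainly without an enzyme and is taken up with food. In the liver it can be reduced at its keto group by the hydroxysteroid dehydrogenase encoded by Hsd11b1. It can also be hydroxylated on its side chain by the mitochondrial enzyme encoded by Cyp27a1. The product of Sult2b1 can sulfate 7KC, and the sterol O-acyltransferases of Soat1 and Soat2 can esterify it. Soat1 is active in many cells, including macrophages that store cholesteryl esters, whereas Soat2 is typical of hepatocytes and intestinal cells. Lcat encodes the enzyme that hepatocytes secrete to esterify cholesterol in the circulation.

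The libraries held an estimated 13650000 to 17200000 mapped reads. The liver label was borne out by the hepatocyte gene Alb, encoding albumin, at 18988 to 41547 FPKM, and all 15 hepatocyte markers of the list used here were above the filter for low values. Summed over these 15 markers the control libraries stood at 68092 and 80103 FPKM and the 7KC libraries at 48030 and 60017 FPKM. Markers of monocytes and recruited macrophages had a sum of 407 and 676 FPKM in the control libraries and of 1208 and 1918 FPKM in the 7KC libraries. These 2 marker sums did not overlap between the groups and moved in opposite directions, and they are given again beside the results they accompany. In whole liver, fewer cells of a type and less RNA per cell cannot be told apart.

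None of the 10 genes passed the test over all genes, and the largest log2 change among the 8 tested was that of Soat1. Soat1 was 2.42-fold higher in the mean of the 7KC group, and its ratio to Soat2 was 0.116 and 0.120 on the diet alone and 0.295 and 0.481 with 7KC. This was not particular to Soat2, since 6 of the 7 ratios of Soat1 to another tested enzyme did not overlap between the groups. The same held for 52.3% of all pairs of tested genes above 0 in every library. The abundant hepatic genes Hsd11b1, Cyp27a1 and Lcat stood 11.7% to 27.1% lower in the mean of the 7KC group on the deposited scale, and Cyp7b1 was at the same mean in both groups, 46.7 FPKM. Of the 10 genes, 8 averaged 0.5 FPKM or more and were tested with limma on log2(FPKM + 0.5), where 0 were higher and 0 were lower at a Benjamini-Hochberg adjusted p under 0.05, with Soat1 (higher) and Soat2 (lower) at an unadjusted p under 0.05, as were 12% of all tested genes in the higher and 5.81% in the lower direction. Across all 12299 genes tested, 0.48% were called higher and 0.0244% lower. With 2 libraries against 2, an exact permutation test of a single gene cannot give a 2-sided p below 0.333.

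A second description needed no variance estimate and asked whether the libraries of the groups overlapped. The 7KC libraries both exceeded the controls in 1 of the 8 tested genes, Soat1, against 25.1% of all tested genes. Both lay below in 6 of 8 (Hsd11b1, Cyp27a1, Cyp39a1, Cyp46a1, Soat2 and Lcat), against 27.4% of all tested genes. Cyp46a1 passed the filter, at a mean of 0.534 FPKM, only through the control group (0.633 FPKM, against 0.436 FPKM with 7KC). Ch25h, with the higher mean in the 7KC group, missed it at 0.483 FPKM. The filter thus bears on these counts and on the median of the 8 genes. Among the 808 tested genes averaging 100 FPKM or more, the level of Hsd11b1, Cyp27a1 and Lcat, 53.2% lay below in this way and 10.1% above. The median log2 change of the 8 tested genes was -0.34, and that of all tested genes was -0.03. The balance between lower and higher genes depended on the scale of the libraries. With every library brought to an equal sum (TPM), 0 of the 8 lay below without overlap and 2 lay above, Soat1 and Lcat, while 7.86% of all tested genes lay below and 46.5% above. After median-ratio scaling 1 lay above and 5 below (27.8% and 23.3% of all tested genes), and after quantile normalization also 1 and 5 (21.1% and 34.2%).

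**Figure D1:**
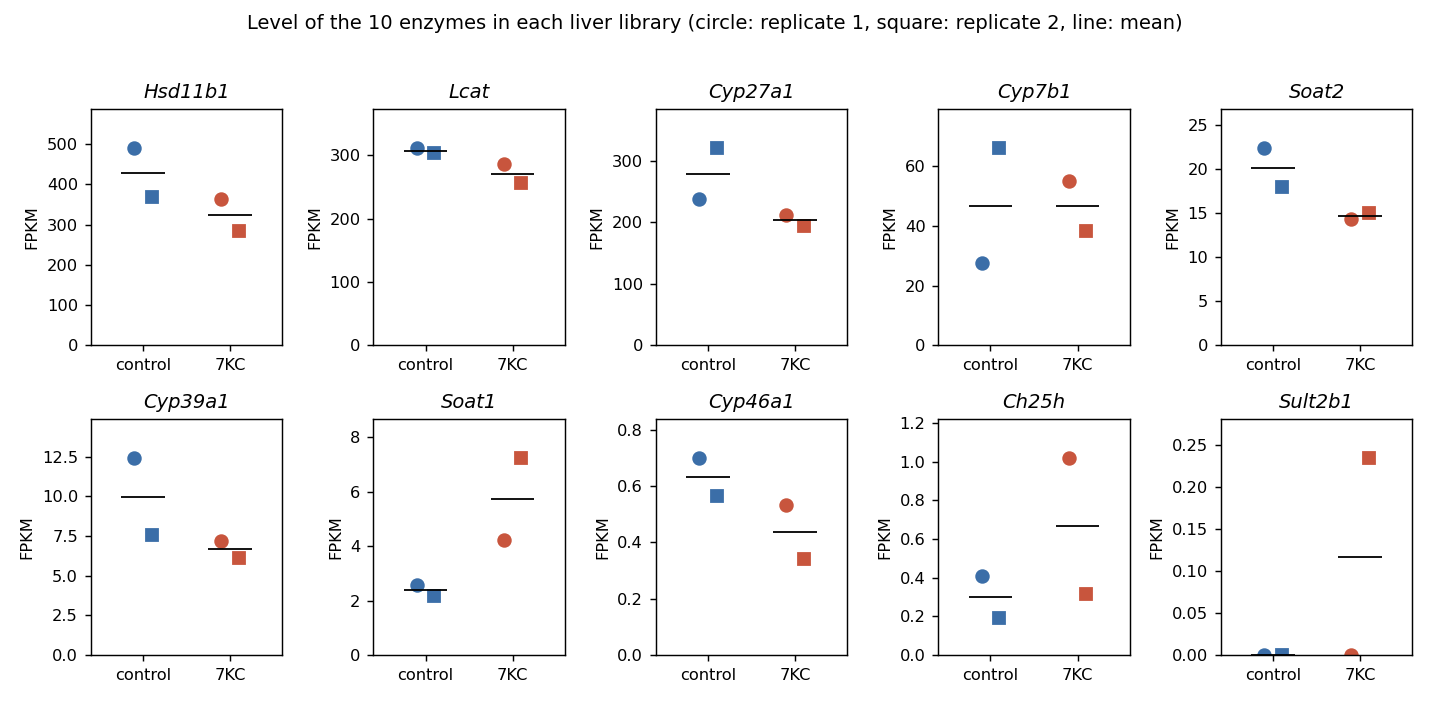
FPKM of the 10 genes (vertical axes, linear and starting at 0, each with its own range) in the 2 control libraries and the 2 libraries of the 7KC group; circles are replicate 1, squares replicate 2 and lines the group means. Soat1 lies higher in both 7KC libraries (4.23 and 7.23 FPKM) than in both control libraries (2.58 and 2.15 FPKM), whereas the control libraries of Cyp7b1 (27.4 and 66.0 FPKM) enclose the 7KC libraries.

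Levels differed widely between the genes, and FPKM, being per length, allows this comparison. Hsd11b1 was the most abundant of the 10 in every library and Sult2b1 the least. Lcat and Cyp27a1 followed Hsd11b1, and their order was exchanged in control replicate 2, so they did not differ beyond the spread. Cyp7b1 was 4th and Soat2 5th in every library. Cyp39a1 stood above Soat1 in 3 libraries and below it in 7KC replicate 2, where Cyp39a1 was at 6.12 and Soat1 at 7.23 FPKM. Cyp46a1 and Ch25h, both under 1.1 FPKM, were also exchanged in 1 library, 7KC replicate 1. The 3 most abundant genes made up 91.3% to 94.0% of the summed level of the 10. This sum was 1103 and 1085 FPKM on the diet alone, against 946 and 801 FPKM on the diet with 7KC, which is 0.161%, 0.162%, 0.153% and 0.144% of all FPKM of the respective library.

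Among the esterifying enzymes, Soat1 (chromosome 1, 156424525 to 156474331, minus strand, mm10) was at 2.58 and 2.15 FPKM in control replicates 1 and 2 and at 4.23 and 7.23 FPKM in 7KC replicates 1 and 2. The lower 7KC library was above the higher control library by more than the gap between the controls, and the 7KC libraries differed 1.71-fold from each other. The mean was 2.37 ± 0.305 FPKM in the control group and 5.73 ± 2.12 FPKM with 7KC (SD over 2 libraries each). The log2 change was 1.08 (SE 0.26, 95% interval 0.42 to 1.74, limma adjusted p 0.13). Of the 12299 tested genes, 6.02% had a smaller p. The gap between the 2 Soat1 values of the 7KC group was itself wide, and only 3.51% of tested genes had a larger one on the log2 scale. The marker sum of monocytes and recruited macrophages moved with Soat1. Per 1000 FPKM of these 11 markers, Soat1 was at 3.82 and 5.28 FPKM on the diet alone, against 3.50 and 3.77 FPKM on the diet with 7KC. Most of this marker sum was 1 gene, Lyz2, at 538 and 321 FPKM on the diet alone and at 995 and 1583 FPKM with 7KC. The outcome depended on the marker list used as denominator. Per 1000 FPKM of resident Kupffer cell markers, Soat1 was at 8.09 and 6.70 FPKM on the diet alone and at 11.6 and 13.1 FPKM with 7KC, and it was also higher without overlap relative to hepatocyte, endothelial and stellate markers. Relative to T and NK cell markers and to B cell markers it overlapped, and relative to cholangiocyte markers it was lower in both 7KC libraries. The part of any of these cells in the Soat1 level was not tested.

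Soat2 (chromosome 15, 102150526 to 102163469, plus strand), the acyltransferase of hepatocytes, was at 22.4 and 18.0 FPKM on the diet alone, against 14.4 and 15.0 FPKM on the diet with 7KC. Both 7KC libraries lay below both control libraries, and the 7KC libraries were within 1.05-fold of each other. On the log2 scale the change was -0.43 (SE 0.14, 95% interval -0.79 to -0.08, limma adjusted p 0.217), and leaving out control replicate 1 brought it to -0.28. Rescaled to the same sum, its libraries overlapped, at 32.6 and 26.8 TPM against 23.2 and 27.0 TPM, with a log2 change of -0.24. The ratio of Soat1 to Soat2 within a library is free of such scaling. It was 0.116, 0.120, 0.295 and 0.481 in control replicates 1 and 2 and 7KC replicates 1 and 2. Soat1 thus made up 10.4% and 10.7% of the summed Soat level on the diet alone and 22.8% and 32.5% with 7KC. The sum of both, 24.9 and 20.1 FPKM in the control group and 18.6 and 22.3 FPKM in the 7KC group, overlapped between the groups.

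**Figure D2:**
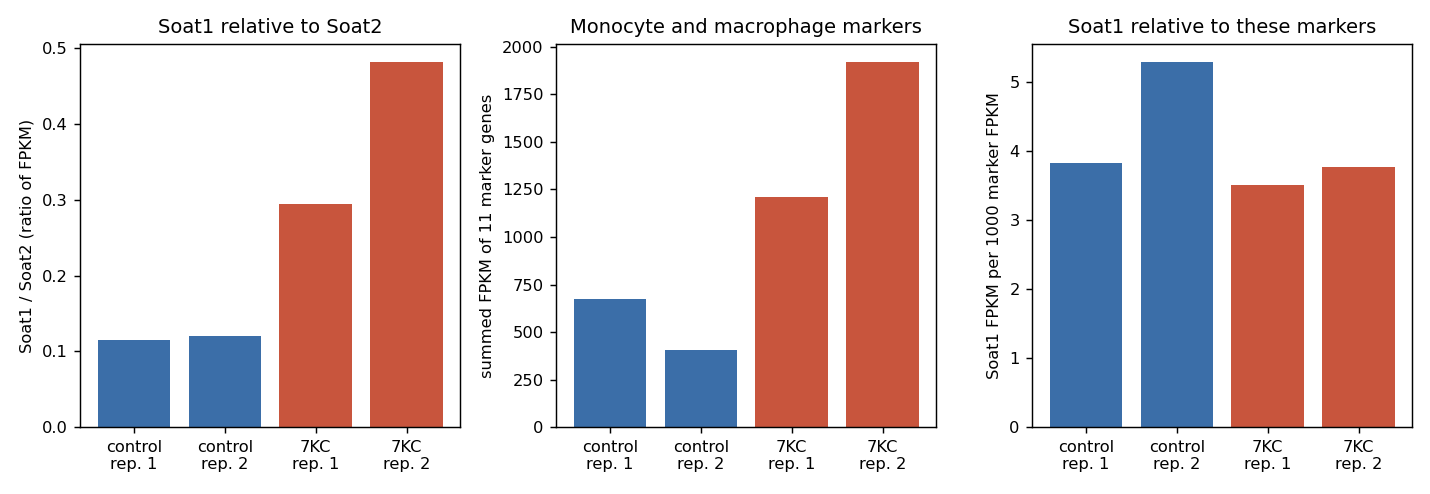
Bars give, for each of the 4 libraries, the ratio of Soat1 to Soat2 FPKM (left), the summed FPKM of 11 markers of monocytes and recruited macrophages (middle), and Soat1 FPKM per 1000 FPKM of these markers (right). The first 2 measures are higher in both 7KC libraries, while the third lies between 3.50 and 5.28 with the 7KC libraries at the low end. The right-hand measure holds for these markers and was higher with 7KC when resident Kupffer cell markers were used.

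Of the 28 pairs that can be formed from the 8 tested genes, the within-library ratio did not overlap between the groups in 9, against 52.3% of all pairs of tested genes above 0 in every library. Soat1 was part of 6 of these 9. Its ratio to Hsd11b1, Cyp27a1, Cyp39a1, Cyp46a1, Soat2 and Lcat was higher in both 7KC libraries, and the ratio to Cyp7b1 overlapped. The remaining 3 pairs without overlap had Lcat as denominator: Cyp27a1, Cyp46a1 and Soat2 were lower relative to Lcat in the 7KC group. In all 3 the nearest libraries were almost level. The lower control and the higher 7KC library stood at 0.0592 and 0.0588 for Soat2, at 0.763 and 0.758 for Cyp27a1 and at 0.00187 and 0.00186 for Cyp46a1. The ratio of Hsd11b1 to Lcat, the most abundant pair, overlapped, at 1.57 and 1.21 on the diet alone and 1.27 and 1.11 with 7KC.

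Lcat (chromosome 8, 105939551 to 105943382, minus strand) stood at 311 and 303 FPKM on the diet alone, against 287 and 256 FPKM on the diet with 7KC. The groups did not overlap, and the controls were within 1.03-fold of each other. The log2 change was -0.18 (SE 0.13, 95% interval -0.51 to 0.15, limma adjusted p 0.502), and leaving out 7KC replicate 2 brought it to -0.10. The direction turned with the scale: at the same sum per library Lcat was at 454 and 452 TPM in the control group and at 462 and 459 TPM in the 7KC group, a log2 change of 0.025.

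The reductase gene Hsd11b1 (chromosome 1, 193221634 to 193264075, minus strand) encodes the enzyme that activates glucocorticoids in the liver and also reduces 7KC to its hydroxylated form. It was at 489 and 368 FPKM on the diet alone, against 365 and 284 FPKM on the diet with 7KC. The groups were separated only narrowly, since control replicate 2 and 7KC replicate 1 were nearly level. On the log2 scale the change was -0.40 (SE 0.21, 95% interval -0.93 to 0.13, limma adjusted p 0.379), and leaving out control replicate 1 or 7KC replicate 2 brought it to -0.19 and -0.22. The same-sum values overlapped, at 714 and 549 TPM against 588 and 509 TPM. H6pd, which supplies the reduced cofactor to this enzyme inside the endoplasmic reticulum, was at 125 and 154 FPKM on the diet alone, against 125 and 113 FPKM on the diet with 7KC (log2 change -0.22, SE 0.15, limma adjusted p 0.48). The ratio of Hsd11b1 to H6pd overlapped between the groups, at 3.91 and 2.39 against 2.92 and 2.51.

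The side-chain hydroxylases were measured at very different levels. Cyp27a1 (chromosome 1, 74713574 to 74737892, plus strand), the sterol hydroxylase of mitochondria, was at 237 and 319.6 FPKM on the diet alone, against 212 and 194 FPKM on the diet with 7KC. Both 7KC libraries lay below both controls and were within 1.09-fold of each other, while the controls differed 1.35-fold. The log2 change was -0.44 (SE 0.18, 95% interval -0.90 to 0.01, limma adjusted p 0.289), and leaving out control replicate 2 brought it to -0.23. At the same sum per library the values were 346 and 476 TPM against 342 and 348 TPM, so 7KC replicate 2 passed above control replicate 1. The electron donors of this enzyme, Fdx1 (adrenodoxin) and Fdxr (its reductase), were not called. Fdx1 was at 85.0 and 116 FPKM on the diet alone, against 93.0 and 64.7 FPKM on the diet with 7KC. Fdxr was at 10.7 FPKM in both control libraries and at 10.2 and 9.75 FPKM in the 7KC libraries.

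The sequences upstream of Soat1 and Cyp27a1 are shown because these genes lay on opposite sides of the controls on the deposited scale. With TPM the libraries of Cyp27a1 overlapped, and neither gene passed the test over all genes. Of the 10 genes, 7 had a promoter window in RefSeq (GRCm38.p6, the assembly of mm10), and Cyp7b1, Cyp39a1 and Soat2 did not. The 250 bases before the annotated start are given 5′ to 3′ on the strand of the gene, with capitals at every match to the motifs searched. Soat1 is at chr1:156474329-156474578 on the minus strand and Cyp27a1 at chr1:74713285-74713534 on the plus strand.
Soat1: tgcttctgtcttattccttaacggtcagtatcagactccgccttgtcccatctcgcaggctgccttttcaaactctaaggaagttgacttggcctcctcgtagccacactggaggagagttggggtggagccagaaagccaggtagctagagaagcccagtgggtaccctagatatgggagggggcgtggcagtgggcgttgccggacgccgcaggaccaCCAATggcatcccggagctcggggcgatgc
Cyp27a1: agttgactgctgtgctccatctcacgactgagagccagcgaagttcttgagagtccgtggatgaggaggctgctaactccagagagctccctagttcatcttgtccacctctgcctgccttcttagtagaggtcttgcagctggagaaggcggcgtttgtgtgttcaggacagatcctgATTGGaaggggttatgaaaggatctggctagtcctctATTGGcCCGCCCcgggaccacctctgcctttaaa
Windows from 250 bases before to 50 bases after the start were searched on both strands for TATAAA (the TATA box), CCAAT (a box of many promoters), GGGCGG (the GC box), a STAT site, the core of the interferon response element, an NF-kB site, the liver X receptor (LXR) element and the sterol regulatory element. A CCAAT box was found in the windows of Soat1, Cyp27a1, Hsd11b1, Lcat and Cyp46a1, as in 37.4% of all 32851 windows. GGGCGG was found in those of Soat1, after the start, Cyp27a1 and Cyp46a1, as in 35.7% of all windows. The window of Ch25h held a TATAAA, as did 13.6% of all windows. The interferon, STAT, NF-kB, LXR and sterol motifs were in 3.44%, 8.3%, 0.155%, 0.0152% and 0.0913% of all windows and in none of those of these genes, which says only that these letters are not in these windows.

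Ch25h (chromosome 19, 34473778 to 34475164, minus strand), the cholesterol hydroxylase of activated macrophages, was at 0.407 and 0.189 FPKM on the diet alone, against 1.02 and 0.316 FPKM on the diet with 7KC. The groups overlapped, because 7KC replicate 2 was below control replicate 1. These levels stand for about 8 and 3 reads in the control libraries and 16 and 5 reads in the 7KC libraries, with exact 95% Poisson intervals of 3.45 to 15.8, 0.619 to 8.77, 9.15 to 26.0 and 1.62 to 11.7 reads, which cover counting error only. The gene missed the filter, and a limma fit without a filter gave 0.49 on the log2 scale (SE 0.35, adjusted p 0.566), so no difference could be detected at these read numbers. It shares 159 exon bases with Gm26902, a gene of the opposite strand, and how strand was treated in counting is not stated. Leaving out control replicate 1 or 7KC replicate 2 removed the overlap, with Ch25h then higher in the 7KC group.

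Cyp46a1 (chromosome 12, 108334381 to 108362234, plus strand), known as the cholesterol hydroxylase of neurons, was at 0.70 and 0.566 FPKM on the diet alone, against 0.532 and 0.34 FPKM on the diet with 7KC. This is about 23 and 15 reads against 14 and 9 reads, and the Poisson intervals of the nearest libraries, 8.40 to 24.7 and 7.65 to 23.5 reads, covered nearly the same range. On the log2 scale the change was -0.28 (SE 0.22, limma adjusted p 0.552). It was -0.13 when 7KC replicate 2 was left out and -0.47 with a pseudocount of 0.1 FPKM.

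The oxysterol hydroxylases of the bile acid pathway were Cyp7b1, which acts on side-chain oxysterols, and Cyp39a1, which prefers the oxysterol made by the product of Cyp46a1. Cyp7b1 (chromosome 3, 18071950 to 18243338, minus strand) stood at 27.4 and 66.0 FPKM on the diet alone, against 55.2 and 38.3 FPKM on the diet with 7KC. The controls differed 2.41-fold, a gap on the log2 scale that only 1.3% of tested genes exceeded, and the 7KC libraries lay between them. The group means were 46.7 ± 27.3 and 46.7 ± 11.9 FPKM (SD over 2 libraries each), and the log2 change was 0.11 (SE 0.43, limma adjusted p 0.918). Its 95% interval, -0.98 to 1.2, reaches about 2-fold either way, so equal means do not show equal expression. Leaving out control replicate 1 turned the change to -0.52, and leaving out 7KC replicate 1 turned it to -0.15.

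Cyp39a1 (chromosome 17, 43667425 to 43751431, plus strand) stood at 12.4 and 7.55 FPKM on the diet alone, against 7.21 and 6.12 FPKM on the diet with 7KC. Only control replicate 1 stood well above the others. The log2 change was -0.51 (SE 0.25, 95% interval -1.14 to 0.11, limma adjusted p 0.349), and leaving out control replicate 1 or 2 brought it to -0.17 or -0.85. The control libraries thus differed in opposite directions for the 2 hydroxylases: Cyp7b1 was lower and Cyp39a1 higher in control replicate 1, and their ratio was 2.21 there and 8.74 in control replicate 2, with 7.65 and 6.26 in the 7KC libraries. Cyp7b1 is known to be more active in the male and Cyp39a1 in the female mouse liver. Of 15 other male-biased liver genes tested, 7 were at least 1.5-fold lower in control replicate 1 than in control replicate 2 and 3 were at least 1.5-fold higher. Of 5 female-biased genes tested, 0 were lower and 4 were higher by this measure. Among all tested genes 4.51% were lower and 7.87% higher in this way. Immune markers were set apart in the same direction as the female-biased genes: 8 of 11 markers of monocytes and recruited macrophages, 5 of 10 of T and NK cells and 4 of 4 of B cells were at least 1.5-fold higher in control replicate 1, and 0 were lower. Cyp7a1 and Cyp8b1, which start the classic bile acid route and set its product, were also lower in control replicate 1, at 13.9 and 4.37 FPKM against 55.9 and 52.5 FPKM in control replicate 2. What set the controls apart was not tested.

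Sult2b1 (chromosome 7, 45729983 to 45784669, minus strand), the sulfotransferase of cholesterol and oxysterols, was listed at 0 in both control libraries and in 7KC replicate 1 and at 0.234 FPKM, about 5 reads, in 7KC replicate 2. It shares exon bases with 2 genes of the opposite strand, Gm31597 and Lmtk3. No fold or difference is given at this depth. Of the related hepatic sulfotransferases, Sult2a1 was listed at 0 in every library and Sult2a8 was at 174 and 298 FPKM on the diet alone, against 174 and 111 FPKM on the diet with 7KC.

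**Figure D3:**
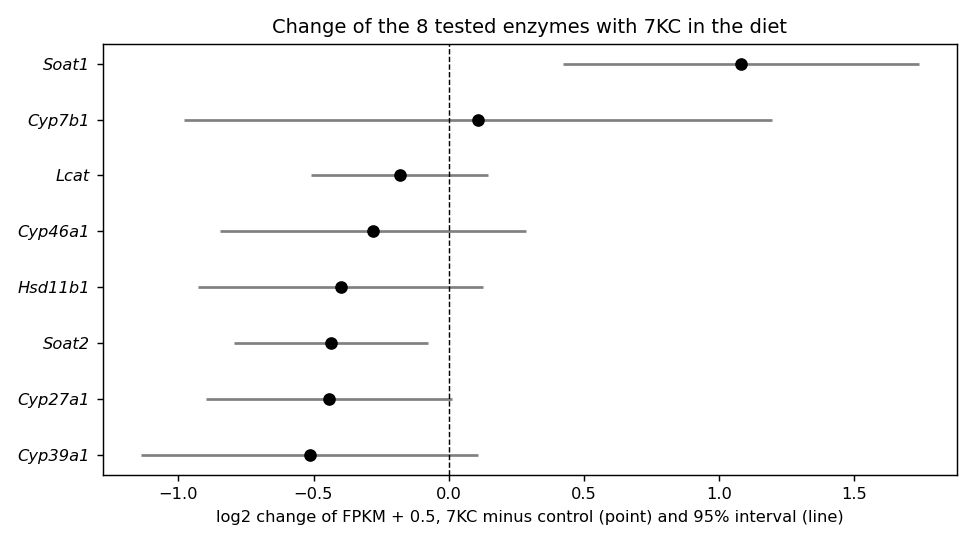
Log2 change of FPKM + 0.5 (horizontal axis, 7KC minus control) of the 8 tested genes; points are limma estimates from 2 libraries a group and lines their 95% intervals, not adjusted for multiple testing. The intervals of Soat1 (0.42 to 1.74) and Soat2 (-0.79 to -0.08) leave out 0, and that of Cyp7b1 is the widest.

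The partners of these enzymes were then described as lists, of which none had a gene past the test over all genes with limma. Of the 4 redox partners, 0 lay above and 2 lay below without overlap, with a median log2 change of -0.27 and 0 at an unadjusted p under 0.05. They were Por, the electron donor of the P450 enzymes in the endoplasmic reticulum, at 465 and 528 FPKM on the diet alone, against 386 and 407 FPKM on the diet with 7KC, and Fdxr. Of 9 tested further enzymes of oxysterol and bile acid metabolism, 0 lay above and 3 lay below, with a median of -0.33 and 1 at an unadjusted p under 0.05. Among those without overlap, the largest differences were those of Akr1d1, a reductase of bile acid synthesis, with a log2 change of -0.41, and Cyp3a11, a drug- and sterol-metabolizing enzyme, with -0.33. Hsd3b7, which oxidizes the ring of hydroxylated sterols after Cyp7b1, overlapped, at 158 and 232 FPKM against 170 and 155 FPKM.

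Of 6 tested receptors and sensors of oxysterols, 1 lay above and 3 lay below without overlap (median -0.24, 0 higher and 1 lower at an unadjusted p under 0.05). Nr1h2, encoding an LXR, had a log2 change of 0.15. Insig1, which holds back sterol synthesis, and Rora, a nuclear receptor that binds sterols, had -0.63 and -0.31. For Insig1 only control replicate 1 stood well above the others. It was at 48.9 and 25.4 FPKM on the diet alone, against 24.6 and 20.8 FPKM on the diet with 7KC (SE 0.31, limma adjusted p 0.36). Gpr183, the receptor for the dihydroxylated sterol that Ch25h and Cyp7b1 make together, was too low to be tested, with 0.361 and 0.0527 FPKM on the diet alone, against 0.239 and 0.553 FPKM on the diet with 7KC. Of 9 tested oxysterol-binding proteins, 1 lay above and 4 lay below (median -0.15, 1 higher and 2 lower at an unadjusted p under 0.05). Osbpl3 was at 0.814 and 0.456 FPKM on the diet alone, against 1.64 and 2.80 FPKM on the diet with 7KC (log2 change 1.24, SE 0.29, limma adjusted p 0.122), whereas Osbpl1a and Osbp had log2 changes of -0.52 and -0.45.

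Of 12 tested genes of cholesteryl ester hydrolysis and lysosomal sterol release, which undo or feed esterification, 3 lay above and 4 lay below (median -0.09, 3 in each direction at an unadjusted p under 0.05). Npc2, which carries cholesterol out of lysosomes, was at 32.8 and 28.4 FPKM on the diet alone, against 42.2 and 54.5 FPKM on the diet with 7KC (log2 change 0.64, SE 0.16, limma adjusted p 0.143). Nceh1, a cholesteryl ester hydrolase of macrophages, was at 8.63 and 9.95 FPKM against 13.7 and 12.7 FPKM (log2 change 0.49, SE 0.13, limma adjusted p 0.144). Ces1e and Ces1c, carboxylesterases of a family whose members share sequence and can exchange reads, had log2 changes of -0.71 and -0.58. Of 12 lipoprotein partners, 1 lay above and 7 lay below (median -0.30, 1 higher and 0 lower at an unadjusted p under 0.05). Abcg1, a sterol exporter, had a log2 change of 0.70, and Apoa1, the activator of the product of Lcat, was at 12660 and 15783 FPKM on the diet alone, against 10023 and 7790 FPKM on the diet with 7KC (log2 change -0.68, SE 0.29, limma adjusted p 0.304). After quantile normalization the log2 change of Apoa1 was -0.077, and that of Apoc1, -0.55 on the deposited scale, was 0.00. Every other gene named in these lists kept its direction under the 3 other scalings except Fdxr, which was at 0.10 with TPM.

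**Figure D4:**
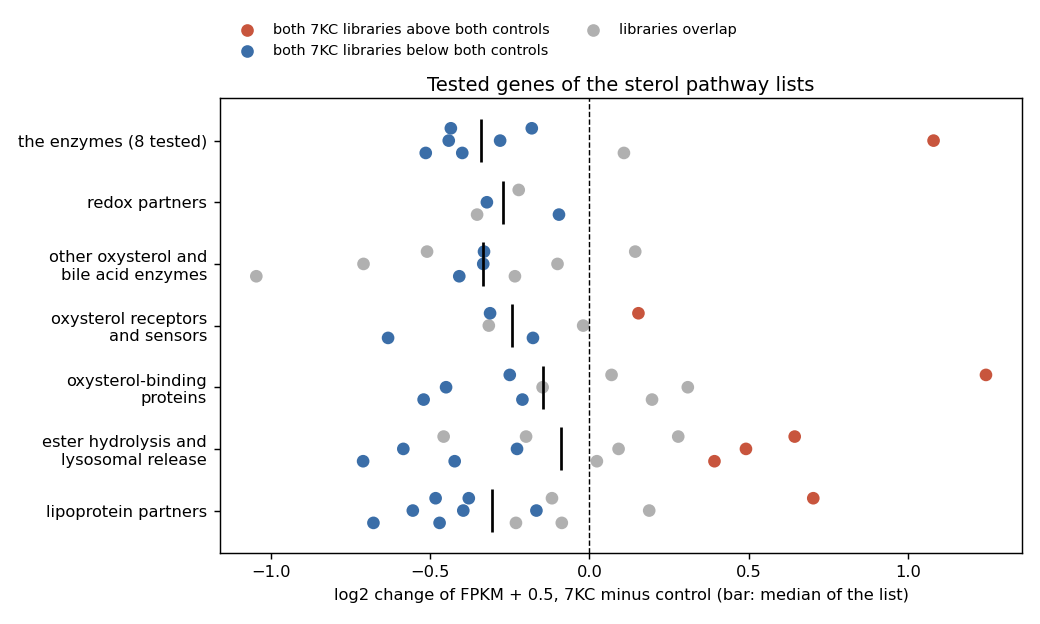
Log2 change of FPKM + 0.5 (horizontal axis, 7KC minus control) of each tested gene of the 10 enzymes and of 6 related lists; red and blue points have both 7KC libraries above or below both control libraries, grey points overlap, and black bars are list medians. In each list the median lies below 0, from -0.34 to -0.09, and Soat1 and Osbpl3 stand farthest to the right.

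The shares of these lists below without overlap are to be read against 27.4% of all tested genes and 53.2% of those averaging 100 FPKM or more. Shares above, also those of the marker lists, are to be read against 25.1% and 10.1%. With TPM, 0 genes lay below among the redox partners, the further oxysterol and bile acid enzymes and the receptors and sensors, and the medians of the oxysterol-binding proteins and of the ester hydrolysis list were 0.06 and 0.11. Of 15 hepatocyte markers, 12 lay below without overlap and 1 lay above (median log2 change -0.52, 5 lower and 0 higher at an unadjusted p under 0.05). Of 11 markers of monocytes and recruited macrophages, 7 lay above and 0 below (median 1.46), and of 8 resident Kupffer cell markers 4 lay above and 2 below (median 0.28). Of 10 tested T and NK cell markers 10 lay above (median 1.23), and of 4 B cell markers 2 did (median 0.49). The T and NK cell marker Klrb1c passed the filter only through the 7KC group, with means of 0.347 FPKM in the control group and 0.746 FPKM with 7KC. Endothelial markers overlapped in all 8 (median 0.02), stellate markers had 1 above and 3 below of 8 (median -0.13), and cholangiocyte markers 2 above and 1 below of 5 (median 0.04). Of the male-biased genes 1 lay above and 4 below of 15 (median -0.53), and of the female-biased genes 0 lay above and 1 below of 5 (median -0.49). With TPM the hepatocyte median was -0.31 and that of the 8 enzymes -0.21, while the median of all tested genes was 0.17. The part of these cell types in the levels of the 10 enzymes was not tested.

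**Figure D5:**
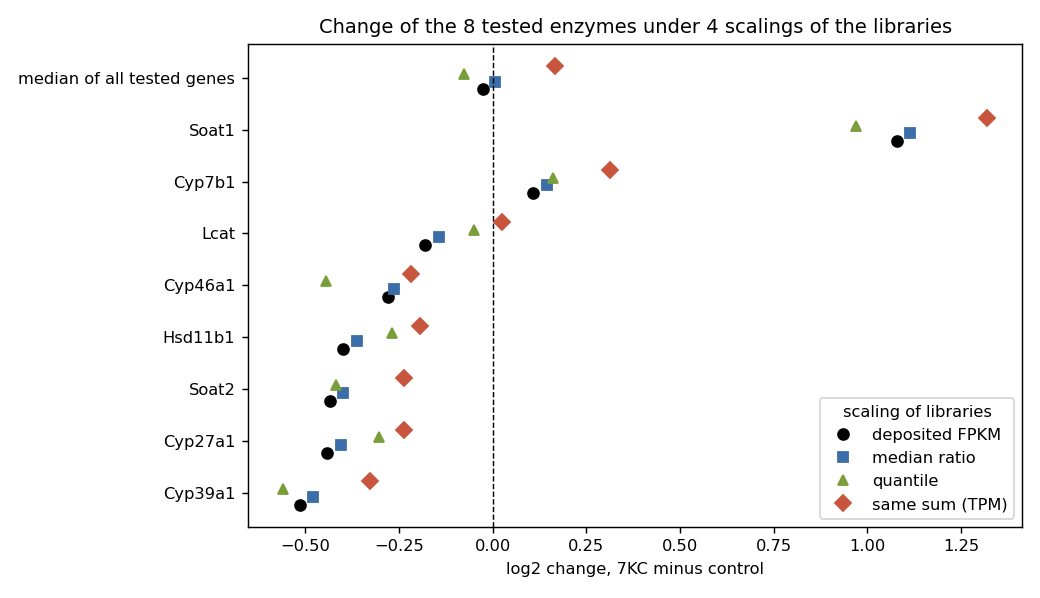
Log2 change (horizontal axis, 7KC minus control) of the 8 tested genes and the median of all tested genes under 4 scalings of the libraries, 1 symbol each. Soat1 stays between 0.97 and 1.32, while the 6 genes that lie lower on the deposited scale move towards 0 with TPM and Lcat passes it, at 0.025.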

How the data were processed

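RNA sequencing of liver was analysed in 4 libraries, 2 of the control group and 2 of the 7KC group, grouped by the sample labels. The authors prepared stranded mRNA libraries, sequenced single-end reads, used TopHat and Bowtie2 to place them on mm10 and Cufflinks to estimate abundance, and deposited 1 FPKM value per gene symbol and library. The submitters' processing notes name TopHat2 2.1.1, Bowtie2 2.2.8, SAMtools 0.1.18 and Cuffdiff 2.2.1, while other versions of the mapping tools stand in the methods. The gene annotation and the handling of multi-mapped reads and strand are not given in the sources used here. Since FPKM divides by the mapped total, abundant genes that differ shift all others.

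The 12299 genes averaging 0.5 FPKM or more entered limma 3.58.1 (R 4.3.3) as log2(FPKM + 0.5), which understates changes of low genes, with group as the only term, 2 residual and 3.27 prior degrees of freedom, and Benjamini-Hochberg adjustment over all genes tested at a threshold of 0.05. The procedure was tested on simulated data. Depth was estimated from the steps of low FPKM values of single-transcript genes (GENCODE M21, same assembly), with 200 bases taken off each transcript, and 75.0% to 78.9% of the values used fell within 0.1 of a whole read. Read numbers were used only to describe precision. They assume the longest annotated transcript of each gene, while Cyp46a1 and Sult2b1 have 4 and 8 annotated transcripts. Gene positions are from GENCODE M21.

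The 10 genes and the 16 other lists (165 entries, 2 symbols not matched) were chosen from general knowledge with earlier results of these data known. Every gene of the group is named, and from each pathway list the 2 largest changes in each direction without overlap, plus the partners of single enzymes. Cyp7a1, Cyp8b1 and the Sult2a genes were named after their values were seen. Besides this procedure 13 other settings were computed, and 1 more was chosen after seeing the data.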

Additional observations from a re-analysis of the deposited data

How the results depend on the processing

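The count of the 10 enzymes past the threshold, 0 higher and 0 lower, was the same under 13 other settings, and a setting chosen after seeing the data made it 1 higher. This was a crossed replicate block, tried because the deviations of control replicate 1 and 7KC replicate 1 correlated at -0.14 across genes. Soat1 then had an adjusted p of 0.0377 (0.0377 to 0.452 over all settings). The replicate numbers are not stated to pair the samples, and with the numbers as deposited the replicate block left 0 genes higher and 0 lower, against 37 lower and 551 higher with the crossed block. Over all genes, 59 were higher and 3 lower; a pseudocount of 1 gave 111 higher, no filter 0 higher and 1 lower, no trend 39 and 1, median-ratio scaling 122 higher, TPM 402 and 7, and leaving out 1 library 2 to 389 higher and 1 to 52 lower. The number of the 10 enzymes without overlap was 2 above and 0 below with TPM, and 2 above in each case when a library was left out, with 6 to 7 below. Which gene joined Soat1 above depended on the library: Ch25h without control replicate 1 or 7KC replicate 2, Cyp7b1 without control replicate 2, and Sult2b1 without 7KC replicate 1. Directions reversed for Lcat when rescaled to the same sum, TPM (0.025) and for Cyp7b1 when libraries were left out (-0.52 to 0.73), and for no other tested enzyme. Depth limits Ch25h, Cyp46a1 and Sult2b1, which rest on an estimated 23 reads or fewer per library.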
